A study of Mus musculus with 6 samples.

Results

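Chemokines are small secreted proteins that direct the movement of leukocytes, and their receptors are G protein-coupled receptors on the cells that respond. The genes described here are those whose annotated symbol is Ccl, Cxcl, Ccr or Cxcr followed by a number, with Cx3cl1 and Cx3cr1. Cxcl9, Cxcl10 and Cxcr3 were outside the selection. The selection held 46 of the 22180 genes measured, namely 19 CC ligands, 12 CXC and CX3C ligands, 9 CC receptors and 6 CXC and CX3C receptors. Genes were taken by symbol, and each is represented by its brightest probe set that names 1 gene. A further 6 symbols, Ccl19, Ccl21a, Ccl21b, Ccl21c, Ccl21d and Ccl27b, stood only on probe sets that name several genes, and these were not used.

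Expression was measured in 6 tumours of B16-F1, a pigmented mouse melanoma line. The cells were implanted at the dorsal flank of C57BL6 mice, 3 tumours grew in WT hosts and 3 in Stat2 KO hosts, and all were collected at day 20. Stat2 KO is the genotype of the host. The labels do not say that the melanoma cells lack Stat2, and they give neither the host's age nor the kind of Stat2 allele. Nor do they tie the tumours to separate animals, and the p-values below rest on the variation among these 6 tumours alone. Tumours grew larger in the Stat2 KO hosts, according to the study's design text, and tumour size and host genotype cannot be told apart here. STAT2 is part of the transcription factor complex that type I interferon activates, and the comparison asks how a tumour's expression differs in a host without it.

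Inflammatory chemokines draw monocytes, neutrophils and activated lymphocytes into a tissue, and homeostatic chemokines place cells within lymphoid organs and skin. CC and CXC ligands are named for the spacing of their first cysteines. Most receptors bind several ligands, and ligands of related function often lie next to each other on a chromosome. In melanoma, macrophages, fibroblasts, lymphocytes and the tumour cells themselves can all make chemokines.

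Levels are given on the log2 scale. In Stat2 KO hosts Stat2 itself read 6.45, 6.48 and 6.33, and in WT hosts 6.79, 6.70 and 6.70, a difference of -0.31 (SE 0.126, limma adjusted p = 0.532). The groups did not overlap (exact two-sided permutation p = 0.1, the smallest that 3 against 3 can give). Which exons the Stat2 probe set reads, and which are deleted, is unknown here, and the tumour cells may express Stat2. The 8 markers of the implanted line, such as Pmel, Tyr and Dct, averaged 11.2 to 11.6 in the Stat2 KO tumours and 11.4 to 11.7 in the WT tumours. Arrays correlated with each other at 0.964 to 0.986 across genes, and 0 pairs were identical.

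Promoter windows from RefSeq (build GRCm38.p6), 250 bases before the gene's start, could be matched to 32 of the 46 genes. The 14 without a window were Ccl2, Ccl4, Ccl5, Ccl7, Ccl11, Ccl24, Ccl26, Cxcl5, Cxcl11, Cxcl16, Cxcl17, Ccr7, Ccr10 and Cxcr5. Of the CC ligands with all Stat2 KO values below the WT values, Ccl8, Ccl3 and Ccl9 are shown. Ccl5, also of this kind, has no window, and the window of Ccl12, a gene of low level, is left out. Also shown are their relative Ccl6, whose mean was lower but whose groups overlapped, and Ccl20, whose values were higher. The last of the windows shown are those of the neutrophil-attracting ligands Cxcl1, Cxcl2 and Cxcl3, whose groups overlapped. Their positions are chr11:82114935-82115184 on the plus strand for Ccl8, chr11:83649379-83649628, chr11:83593088-83593337 and chr11:83578637-83578886 on the minus strand for Ccl3, Ccl6 and Ccl9, chr1:83116516-83116765 on the plus strand for Ccl20, and chr5:90890995-90891244, chr5:90903649-90903898 and chr5:90785851-90786100 on the plus strand for Cxcl1, Cxcl2 and Cxcl3. Each is written 5′ to 3′ and ends at the base before the start. Capitals mark a match to the kappaB consensus (the site of NF-kappaB), to TGANTCA (AP-1), or to TATAAA (the letters of the TATA box, at any position and on the gene's strand only). The windows of Ccl3 and Ccl6 hold no such match.
Ccl8: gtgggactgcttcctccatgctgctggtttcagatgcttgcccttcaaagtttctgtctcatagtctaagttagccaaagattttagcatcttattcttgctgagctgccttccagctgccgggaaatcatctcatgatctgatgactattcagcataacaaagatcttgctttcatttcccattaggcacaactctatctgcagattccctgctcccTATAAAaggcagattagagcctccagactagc
Ccl3: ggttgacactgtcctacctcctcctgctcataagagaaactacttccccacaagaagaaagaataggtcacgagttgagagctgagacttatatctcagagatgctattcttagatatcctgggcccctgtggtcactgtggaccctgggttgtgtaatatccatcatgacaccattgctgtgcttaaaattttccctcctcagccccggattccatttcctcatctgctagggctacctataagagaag
Ccl6: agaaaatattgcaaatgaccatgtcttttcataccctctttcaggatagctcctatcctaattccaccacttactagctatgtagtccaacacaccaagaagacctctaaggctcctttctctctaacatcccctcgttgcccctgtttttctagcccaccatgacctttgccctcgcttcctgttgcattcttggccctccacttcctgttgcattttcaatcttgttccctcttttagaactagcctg
Ccl9: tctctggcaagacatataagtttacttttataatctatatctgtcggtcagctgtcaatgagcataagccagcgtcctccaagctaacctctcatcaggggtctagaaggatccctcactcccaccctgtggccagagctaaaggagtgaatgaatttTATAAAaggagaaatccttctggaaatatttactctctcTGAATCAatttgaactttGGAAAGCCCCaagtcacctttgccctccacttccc
Ccl20: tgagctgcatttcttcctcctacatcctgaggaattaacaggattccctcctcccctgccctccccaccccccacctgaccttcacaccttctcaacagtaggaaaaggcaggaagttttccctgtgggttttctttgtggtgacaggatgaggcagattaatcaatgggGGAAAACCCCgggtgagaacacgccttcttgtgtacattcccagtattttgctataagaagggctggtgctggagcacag
Cxcl1: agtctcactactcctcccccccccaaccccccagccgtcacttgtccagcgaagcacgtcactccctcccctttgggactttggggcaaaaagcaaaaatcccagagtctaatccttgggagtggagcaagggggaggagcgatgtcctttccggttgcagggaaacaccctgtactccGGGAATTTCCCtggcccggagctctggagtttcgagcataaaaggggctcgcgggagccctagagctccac
Cxcl2: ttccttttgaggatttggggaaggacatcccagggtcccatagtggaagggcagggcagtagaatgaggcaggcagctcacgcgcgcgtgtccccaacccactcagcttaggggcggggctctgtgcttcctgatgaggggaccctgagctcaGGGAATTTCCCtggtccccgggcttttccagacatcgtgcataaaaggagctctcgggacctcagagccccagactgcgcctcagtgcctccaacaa
Cxcl3: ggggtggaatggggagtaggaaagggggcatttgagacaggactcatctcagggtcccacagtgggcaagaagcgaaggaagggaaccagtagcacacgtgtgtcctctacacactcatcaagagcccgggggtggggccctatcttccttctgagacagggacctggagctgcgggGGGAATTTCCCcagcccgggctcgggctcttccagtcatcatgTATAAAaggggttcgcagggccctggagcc

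A kappaB match was found in 7 of the 32 genes (21.9%), against 4.46% of the 27025 genes with a window. These were Ccl9, Ccl20, Cxcl1, Cxcl2, Cxcl3, Ccr3 and Ccr6. In Cxcl1, Cxcl2 and Cxcl3 the same letters appear, GGGAATTTCCC, which hold overlapping matches and begin 71, 97 and 73 bases before the start. The Ccl20 match begins 80 bases and the Ccl9 match 35 bases before the start. The core of the interferon-stimulated response element (GAAA, any 2 bases, GAAA, searched on both strands) was in 1 of the 32 genes (Cxcl14), or 3.12%, against 3.46% of all genes. The gamma-activated site TTCNNNGAA was in 3 genes (Ccl17, Ccr6 and Cxcl14), or 9.38%, against 8.13%. AP-1 matches were in 4 genes (12.5% against 7.82%) and TATAAA in 9 (28.1% against 8.94%). TATAAA was counted at any position, from 6 bases (Cx3cl1) to 92 bases (Ccl9) before the start, so a match need not be a working TATA box. All these motifs are letters found in a short window and say nothing of whether a factor binds there. The shares cover the 32 genes only, and the 14 without a window, Ccl5, Cxcl11 and Cxcl16 among them, were not searched.

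Among the 46 genes, 0 passed an adjusted p of 0.05 (limma with Benjamini-Hochberg adjustment over all 22180 genes), where 0.00902% of all genes did. At an unadjusted p under 0.05 there were 11 of 46 (23.9%) against a background of 8.82% of all genes. Of 1105 olfactory receptor genes, used below as a class near background, 24.1% were at that level, 6 lower and 260 higher. These 11 were divided into 5 lower and 6 higher in Stat2 KO hosts, against 3.48% of all genes lower and 5.34% higher. The lower ones were Ccl8, Ccl3, Ccl9, Ccl5 and Cxcl16, and the higher ones Ccl27a, Ccl20, Cxcl15, Cxcl17, Ccr8 and Ccr9. The count was 3 without WT replicate 2 (5.31% of all genes there), and 7 without Stat2 KO replicate 2 or without Stat2 KO replicate 3 (6.62% and 5.68% of all genes). A renewed quantile normalization or cyclic loess gave 5 lower and 4 higher genes (7.51% and 7.61% of all genes at that level), and median centring gave 5 and 3 (8.11%).

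**Figure D1:**
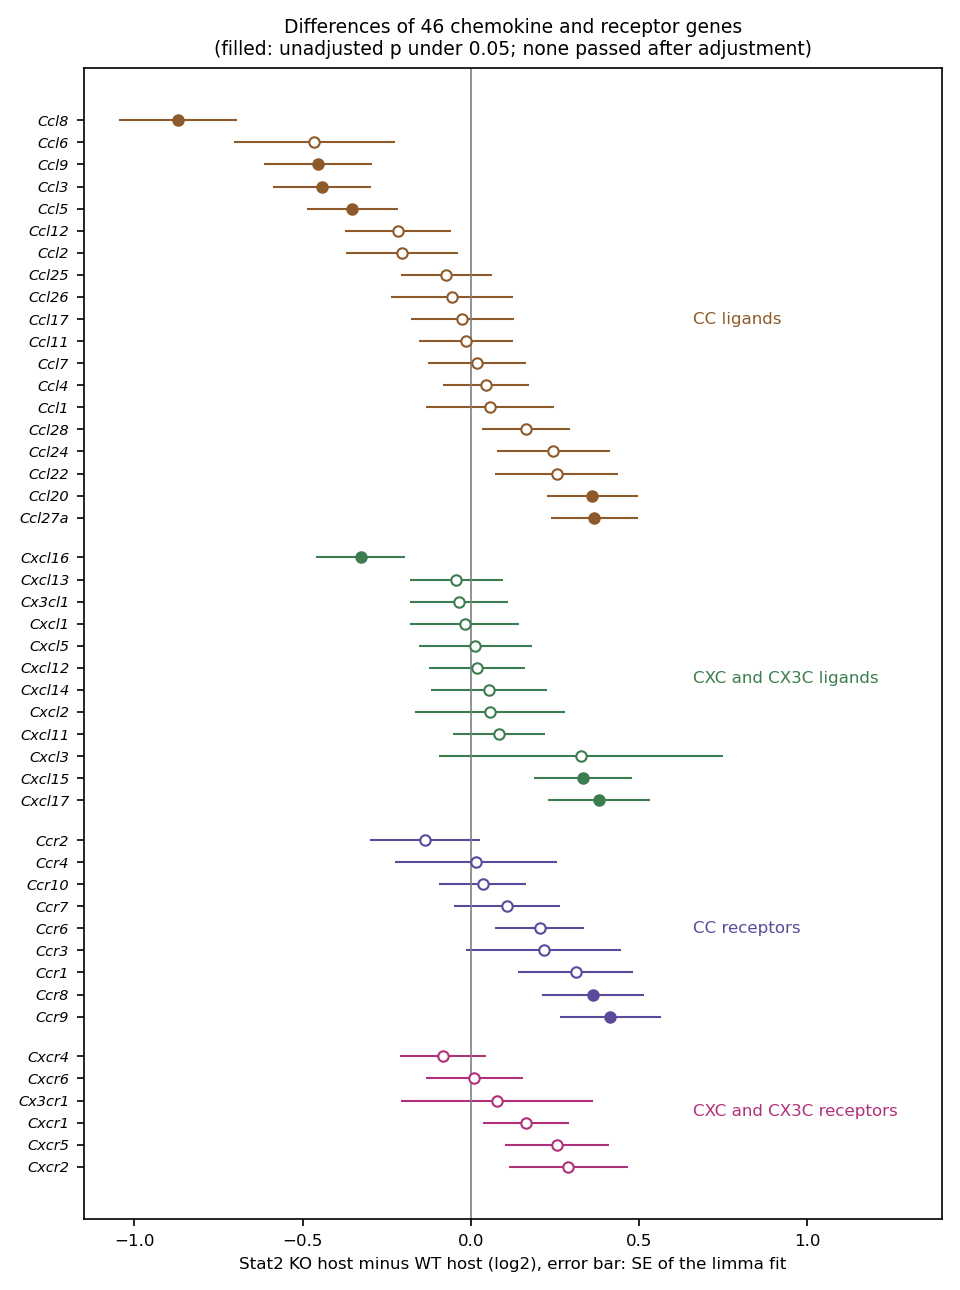
Difference of each of the 46 genes between Stat2 KO and WT hosts (log2, horizontal axis), grouped by role, with the SE of the limma fit as error bar and filled points for an unadjusted p under 0.05. Ccl8 lies farthest from 0 at -0.87, and the 6 filled points on the higher side lie between 0.33 and 0.41.

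The 3 values of each host did not overlap for 12 of 46 genes (26.1%), 6 lower and 6 higher. Over all genes the share was 13.3%, with 5.11% lower and 8.23% higher. Among the olfactory receptor genes it was 22.2%, with 9 lower and 236 higher. Without Stat2 KO replicate 1 the count of the family was 21 (45.7%), where 34.7% of all genes did not overlap. After quantile normalization or cyclic loess the family's count was 8 (17.4%, against 12.3%). The median difference of the 46 genes was 0.040, beside 0.021 over all genes. By sign alone, 17 were lower and 29 higher, a split that turned to 24 and 22 after quantile normalization or cyclic loess and to 27 and 19 after median centring. Without WT replicate 1 it was 27 and 19 with a median of -0.023, without Stat2 KO replicate 2 it was 23 and 23 with a median of 0.0013, and without Stat2 KO replicate 1 the median was 0.11. The direction of the family as a whole therefore depended on the scaling and on single arrays.

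Of the 46 genes, 11 averaged above 6.72, the 95th percentile of 1105 olfactory receptor genes, a class whose known site of use is the nasal epithelium. They were Ccl2, Ccl5, Ccl7, Ccl9, Ccl25, Cxcl12, Cxcl14, Cxcl16, Cxcl17, Cxcr4 and Cx3cr1. Of these 11, 6 were lower and 5 higher with a median difference of -0.073, and of the 8827 genes above that level 6323 were lower, with a median of -0.089. Another 7 averaged below the olfactory receptor median of 5.21 and are called dim here: Ccl12, Ccl17, Ccl26, Cxcl3, Ccr1, Ccr3 and Ccr4. For the genes between these levels, and more so for the dim ones, signal above background was not shown, and the size of a difference is uncertain. Olfactory receptor genes themselves were higher in Stat2 KO hosts in 903 of 1105 cases (81.7%), with a median difference of 0.22. At an unadjusted p under 0.05, 260 of them were higher and 6 lower. That shift was 0.13 after quantile normalization or cyclic loess and 0.16 after median centring.

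The largest difference among the ligands was that of Ccl8, which in the mouse is a ligand of CCR8. Ccl8 read 5.30, 5.80 and 5.42 with Stat2 KO hosts and 6.41, 6.09 and 6.63 with WT hosts. Every Stat2 KO value lay below every WT value. The means were 5.51 ± 0.257 and 6.38 ± 0.272 (SD, n = 3 each), a difference of -0.87 (SE 0.176, limma adjusted p = 0.312). Ccl8 averaged 5.94, under the level of 6.72 described above, so signal above background was not shown for it and no linear fold is given. Over the alternatives the difference stayed between -1.01 and -0.74, and its adjusted p ran from 0.0370 with array weights to 0.801. Ccl1, the other CCR8 ligand, was at 0.057 (SE 0.191), with groups that overlapped. In bulk tumour RNA, fewer cells that make a chemokine and less RNA per cell cannot be told apart.

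Inflammatory CC ligands that act through CCR1 and related receptors were lower in 4 of 5 cases (5 of 5 after median centring), with a median difference of -0.44 beside 0.021 for all genes. That median ran from -0.51 with median centring to -0.35 without Stat2 KO replicate 2. Ccl3, made by activated macrophages, read 6.25, 6.59 and 6.33 in Stat2 KO and 6.71, 7.01 and 6.77 in WT tumours. Its groups did not overlap, and the difference was -0.44 (SE 0.146, limma adjusted p = 0.486). Ccl9, which myeloid cells make, read 6.74, 6.65 and 7.20 against 7.29, 7.44 and 7.22. Stat2 KO replicate 3 lay just below the lowest WT tumour, and the difference was -0.45 (SE 0.161, adjusted p = 0.509).

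Ccl5, which recruits T cells and monocytes, read 6.93, 7.10 and 6.95 in Stat2 KO and 7.51, 7.31 and 7.21 in WT tumours. All 3 Stat2 KO values were below the WT values, with a difference of -0.35 (SE 0.136, limma adjusted p = 0.524). Ccl6, another CCR1 ligand of myeloid cells, read 6.24, 5.35 and 6.23 against 6.09, 6.78 and 6.34. Its low mean came mostly from Stat2 KO replicate 2, and the groups overlapped. The difference of -0.46 (SE 0.239, adjusted p = 0.598) was -0.17 without that tumour and -0.27 without WT replicate 2. Ccl4 is the close relative of Ccl3. It read 6.65, 6.62 and 6.58 in Stat2 KO and 6.47, 6.68 and 6.56 in WT tumours, a difference of 0.045 with a 95% interval of -0.23 to 0.32 from the limma fit.

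**Figure D2:**
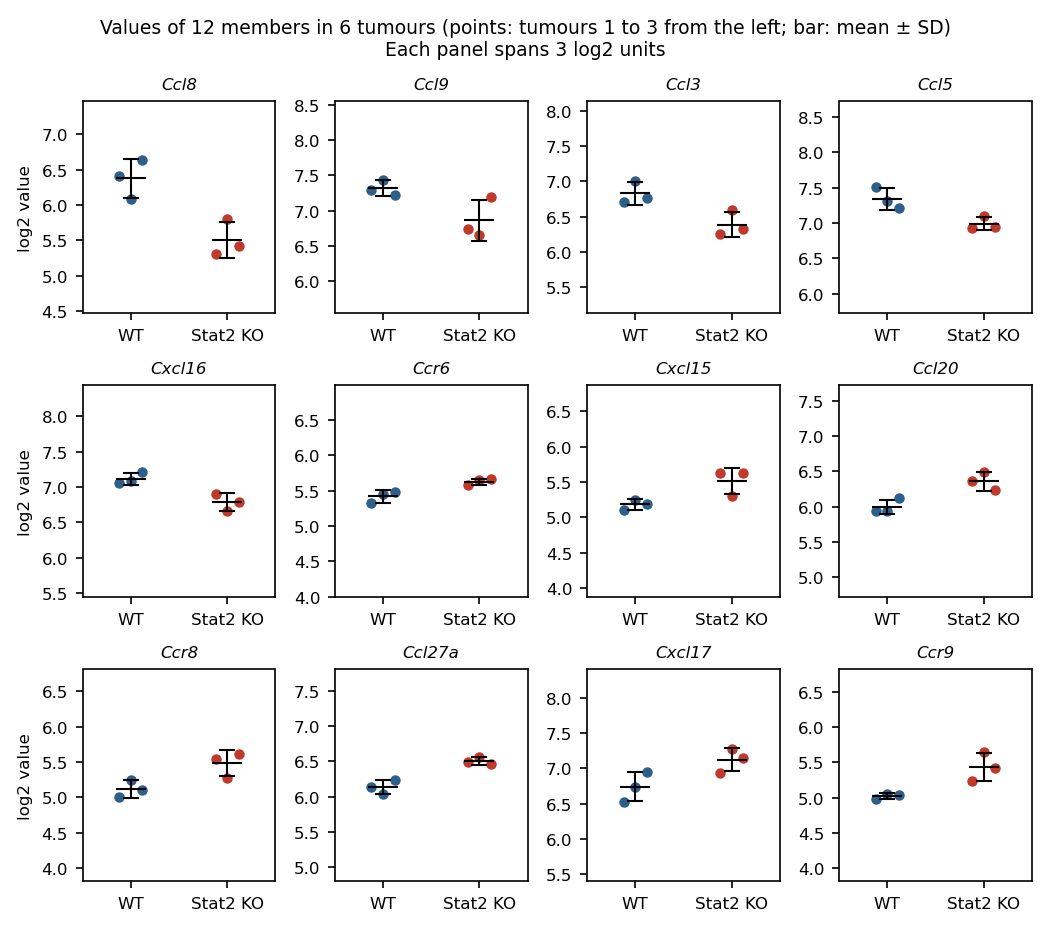
Log2 value in each of the 6 tumours for the 12 genes with an unadjusted p under 0.05 or with groups that do not overlap and a level that is not dim, ordered by difference (points are tumours, bars are mean ± SD, n = 3 each). From Ccl8 to Cxcl16 the Stat2 KO points lie below the WT points, and in the other panels they lie above them except for Cxcl17, where they overlap.

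Among 14 monocyte and macrophage markers, 12 were lower in Stat2 KO hosts, with C1qb at -0.95, Ms4a7 at -0.83, Cd68 at -0.61 and Lyz2 at -0.57. At an unadjusted p under 0.05, 5 of the 14 were lower and 1 higher, where 3.48% of all genes were lower and 5.34% higher. The mean level of the 14 markers was 6.17 to 6.37 in Stat2 KO and 6.43 to 6.66 in WT tumours. Of the defining markers, Adgre1 differed by -0.21, Csf1r by -0.29 and Itgam by -0.042, and Ly6c2, the 1 dim marker, by 0.35. Fibroblast markers were lower in 6 of 7 cases, with mean levels of 6.37 to 6.84 and 6.89 to 7.23. By sign alone, 46% of all genes were lower, and 6323 of the 8827 genes above the level of 6.72. The part of macrophages or fibroblasts in the chemokine differences was not tested.

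The CCR2 ligands, which bring monocytes out of the blood, did not separate by host among the genes that were not dim. Ccl2 read 6.83, 6.64 and 7.06 in Stat2 KO and 6.83, 6.97 and 7.34 in WT tumours, a difference of -0.20 (SE 0.166) that ran from -0.31 to -0.055 when a tumour was left out. Ccl7 read 6.59, 6.90 and 6.84 against 6.60, 6.93 and 6.74, a difference of 0.019 (95% interval -0.30 to 0.33). The values of both genes overlapped between hosts. Ccl12 was dim at 4.39, 4.26 and 4.43 against 4.49, 4.72 and 4.52, and its groups did not overlap (difference -0.22, SE 0.158, limma adjusted p = 0.693). Their receptor gene Ccr2 read 5.16, 5.37 and 5.75 in Stat2 KO and 5.56, 5.64 and 5.49 in WT tumours. The Stat2 KO values spread on both sides of the WT values, at a difference of -0.14 (95% interval -0.49 to 0.22). That difference was -0.0024 when Stat2 KO replicate 1 was left out and -0.30 when replicate 3 of that host was.

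Of the CC ligands with higher values in Stat2 KO hosts, Ccl20 attracts cells with CCR6, such as immature dendritic cells and some T and B cells. Ccl20 read 6.36, 6.49 and 6.23 in Stat2 KO and 5.94, 5.94 and 6.12 in WT tumours, without overlap and at a difference of 0.36 (SE 0.135, limma adjusted p = 0.509). The gene of its receptor, Ccr6, read 5.58, 5.65 and 5.66 against 5.32, 5.46 and 5.48. These groups did not overlap either, and the difference was 0.20 (SE 0.132, adjusted p = 0.655). Ccl20 averaged 6.18 and Ccr6 5.52, both under the level of 6.72 described above, so signal above background was not shown. Both differences have the direction of the olfactory receptor genes, whose median was 0.22. Over the alternatives Ccl20 ran from 0.27 to 0.43 and Ccr6 from 0.084 to 0.23. Ccl27a, a skin chemokine of keratinocytes and ligand of CCR10, read 6.49, 6.56 and 6.46 against 6.14, 6.04 and 6.23, a difference of 0.37 (SE 0.128, adjusted p = 0.501). Ccl27a lies among near-identical gene copies, and its probe set shares all its values with others, so that 3 probe sets hold the same numbers. Its other, dimmer single-gene probe set differed by -0.19, and the mean of both by 0.090, so the size and direction of Ccl27a are uncertain.

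The remaining CC ligands had groups that overlapped. Differences were 0.25 for Ccl22 and -0.025 for Ccl17, both ligands of CCR4, and 0.24 for Ccl24 and -0.014 for Ccl11, the eotaxins that draw eosinophils through CCR3. Ccl26, also of the eotaxin group, was at -0.055, the thymus and gut chemokine Ccl25 at -0.073 and the epithelial chemokine Ccl28 at 0.16. Over all 19 CC ligands, 11 were lower and 8 higher, with a median of -0.025 that turned to 0.030 when Stat2 KO replicate 1 was left out and to 0.011 when WT replicate 3 was.

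Neighbouring genes did not all share a value. In RefSeq's order of protein-coding genes on the mouse assembly named above, Ccl5, Ccl9, Ccl6, Ccl3 and Ccl4 follow each other, with differences of -0.35, -0.45, -0.46, -0.44 and 0.045. Ccl4, at the end of this row, was the member without a lower value. In the other row of CC ligands, Ccl2, Ccl7, Ccl11, Ccl12, Ccl8 and Ccl1 stood at -0.20, 0.019, -0.014, -0.22, -0.87 and 0.057. Ccl8 thus lay between genes at -0.22 and 0.057. Differences between neighbours were not tested.

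**Figure D3:**
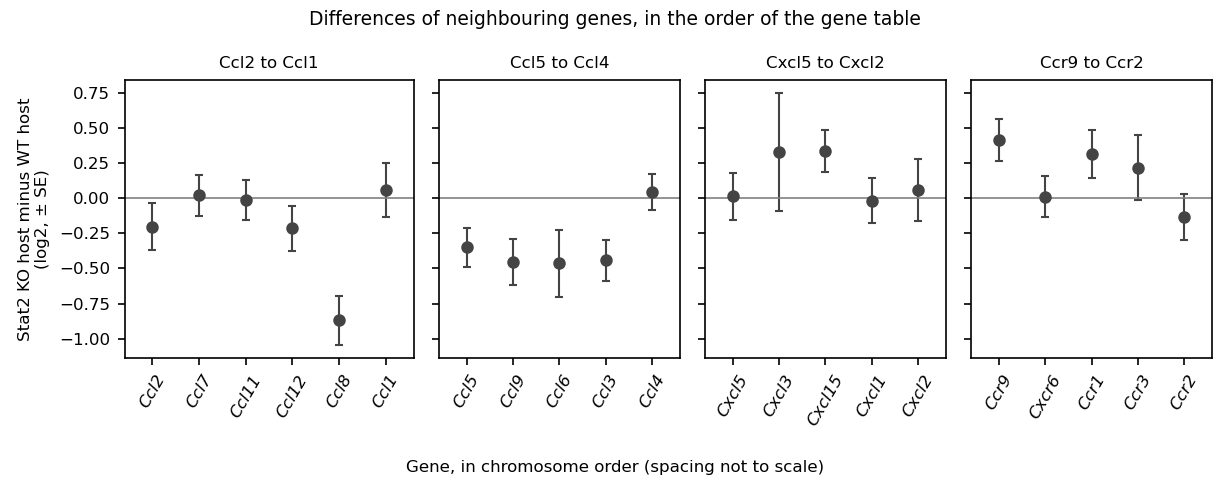
Difference between Stat2 KO and WT hosts (log2, with SE) for 4 rows of neighbouring genes, in chromosome order and with spacing not to scale. Ccl5 to Ccl3 lie between -0.46 and -0.35, with Ccl4 at 0.045, and Ccl8 at -0.87 stands below its neighbours.

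Cxcl16 was the CXC ligand with lower values. It is made as a membrane-bound protein that also acts as a scavenger receptor, and its receptor is CXCR6. Cxcl16 read 6.90, 6.66 and 6.79 in Stat2 KO and 7.05, 7.08 and 7.21 in WT tumours. The groups did not overlap, and the difference was -0.33 (SE 0.132, limma adjusted p = 0.528), with -0.39 to -0.26 over the alternatives. Cxcr6 itself read 5.34, 5.27 and 5.30 against 5.16, 5.50 and 5.22. The WT tumours lay on both sides of the Stat2 KO tumours, and the difference was 0.010 (95% interval -0.30 to 0.32). Of the 8 T cell markers measured, 7 were higher in Stat2 KO hosts and 0 had an unadjusted p under 0.05. With quantile normalization or cyclic loess 3 of the 8 were higher, and with median centring 4. The highest mean of the 8 was that of Cd8b1 at 6.38, under the level of 6.72 described above, and 1 was dim. Signal above background was therefore not shown for them. Olfactory receptor genes, by comparison, were higher in 81.7% of cases.

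The CXCR2 ligands recruit neutrophils, and their values overlapped between hosts. Cxcl1 read 5.43, 5.58 and 5.51 in Stat2 KO and 5.32, 5.85 and 5.41 in WT tumours, a difference of -0.018 (95% interval -0.37 to 0.33). Cxcl2 read 5.62, 6.54 and 6.47 against 5.90, 6.23 and 6.34. Stat2 KO replicate 1 was low for Cxcl2, and the difference of 0.056 was 0.35 without it, and leaving out replicate 2 of that host gave -0.11. Cxcl5 read 5.62, 5.45 and 5.22 against 5.19, 5.37 and 5.69, a difference of 0.014. Cxcl3, dim in these tumours, read 4.68, 4.88 and 4.21 against 4.59, 2.99 and 5.20. It varied most of the 46 genes, with a pooled SD within hosts of 0.841, and its difference of 0.33 (SE 0.422) was -0.31 without WT replicate 2.

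The receptor genes of these ligands were at 0.29 (SE 0.178) for Cxcr2 and 0.16 (SE 0.129) for Cxcr1. Cxcr2 read 6.11, 6.51 and 6.64 in Stat2 KO and 6.41, 6.11 and 5.87 in WT tumours, so that the groups overlapped. Leaving out Stat2 KO replicate 1 gave 0.44, and leaving out WT replicate 3 gave 0.16. Of 10 neutrophil markers, 9 were higher in Stat2 KO hosts, with a median of 0.15, and 0 had an unadjusted p under 0.05. With quantile normalization or cyclic loess 6 of the 10 were higher with a median of 0.041, and with median centring 8 with a median of 0.088. The median was 0.097 without WT replicate 1 and 0.25 without WT replicate 3. All 10 neutrophil markers averaged below the level of 6.72 described above, the highest being Mpo at 6.21, and 3 were dim. Signal above background was therefore not shown for them. Olfactory receptor genes, by comparison, were higher in 81.7% of cases with a median of 0.22. Whether neutrophil numbers differed between hosts was not tested.

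**Figure D4:**
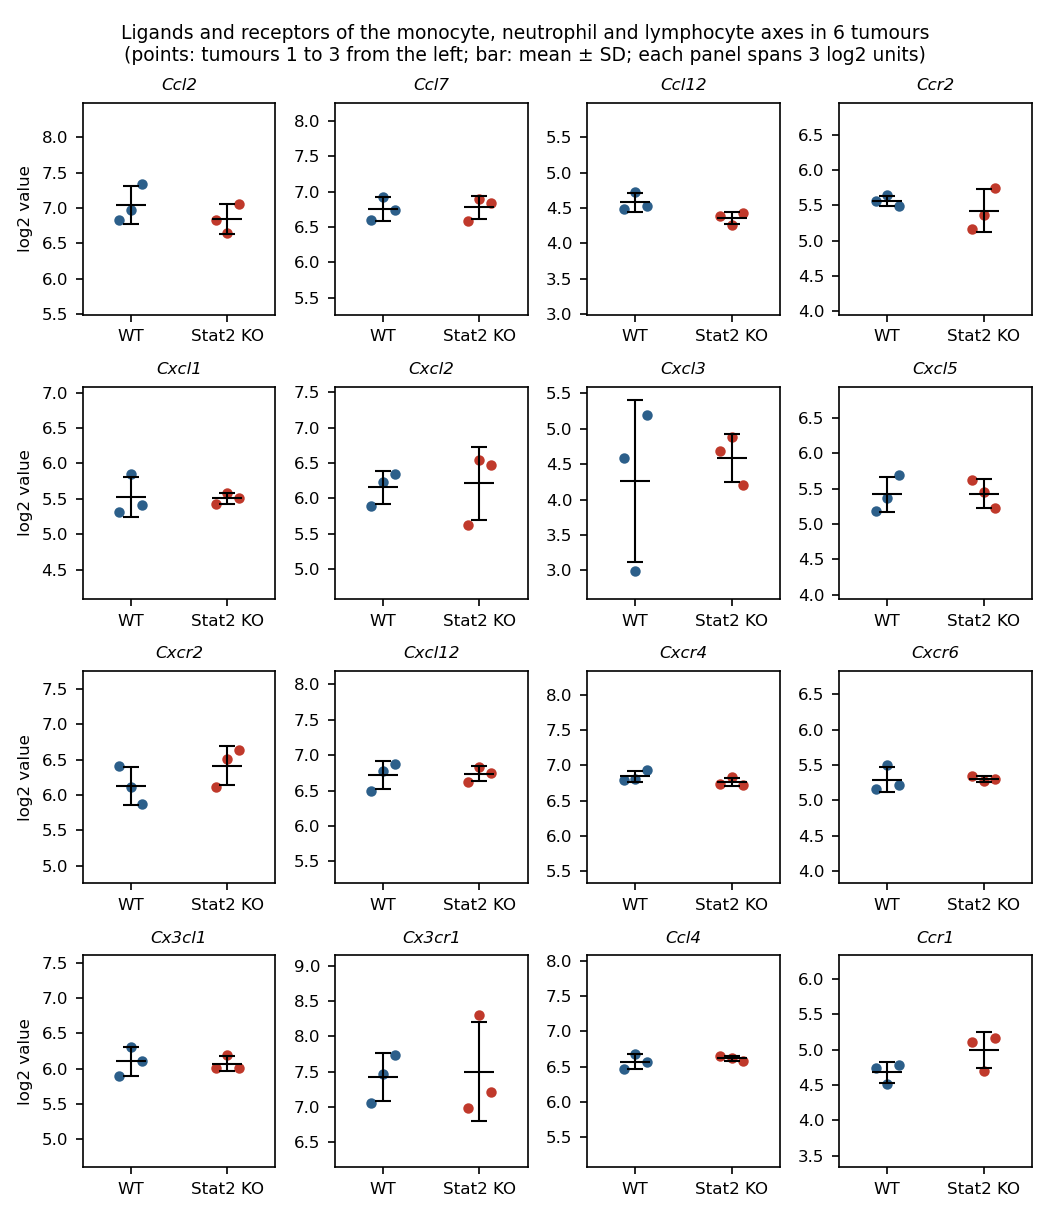
Log2 value in each of the 6 tumours for Ccl2, Ccl7, Ccl12, Ccr2, Cxcl1, Cxcl2, Cxcl3, Cxcl5, Cxcr2, Cxcl12, Cxcr4, Cxcr6, Cx3cl1, Cx3cr1, Ccl4 and Ccr1 (points are tumours, bars are mean ± SD, n = 3 each). Of these 16 genes the groups overlap for all but Ccl12, and Cxcl3 and Cx3cr1 show the widest spread within a host.

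Higher values among the other CXC ligands were found for Cxcl17 and Cxcl15. Cxcl17, a chemokine of mucosal tissues, read 6.94, 7.27 and 7.15 in Stat2 KO and 6.53, 6.74 and 6.95 in WT tumours. The lowest Stat2 KO and the highest WT value were nearly equal, and the difference was 0.38 (SE 0.151, limma adjusted p = 0.525). Cxcl15, known from lung epithelium, read 5.62, 5.30 and 5.63 against 5.10, 5.25 and 5.19, without overlap and at a difference of 0.33 (SE 0.147, adjusted p = 0.556). Both differences have the direction of the olfactory receptor genes, whose median was 0.22, and Cxcl15 averaged 5.35, near the olfactory receptor median of 5.21.

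The stromal ligand Cxcl12, which holds cells with CXCR4 in place, read 6.62, 6.83 and 6.75 in Stat2 KO and 6.50, 6.77 and 6.88 in WT tumours. The hosts overlapped widely, at a difference of 0.019 (95% interval -0.29 to 0.33). Cxcr4, found on leukocytes and many tumour cells, read 6.74, 6.84 and 6.73 against 6.79, 6.81 and 6.94, a difference of -0.082 (95% interval -0.36 to 0.19). Cxcl13, the B cell chemokine, was at -0.043, its receptor gene Cxcr5 at 0.26 (SE 0.154), and Cxcl14 at 0.055. Cxcl11, whose copy in C57BL/6 mice carries a frameshift, was at 0.084 (95% interval -0.22 to 0.38). Over the 12 CXC and CX3C ligands, 4 were lower and 8 higher, a split that became 7 and 5 after quantile normalization or cyclic loess and 8 and 4 after median centring.

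Fractalkine, the product of Cx3cl1, is a membrane-anchored ligand for CX3CR1 on monocytes and macrophages. Cx3cl1 read 6.01, 6.19 and 6.01 in Stat2 KO and 5.90, 6.31 and 6.11 in WT tumours, a difference of -0.035. Cx3cr1 read 6.99, 8.30 and 7.21 against 7.06, 7.47 and 7.73. Stat2 KO replicate 2 held the highest Cx3cr1 value, and the other Stat2 KO tumours lay within or below the WT range. The difference was 0.078 (SE 0.286), which became -0.32 when Stat2 KO replicate 2 was left out and 0.33 when replicate 1 of that host was.

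Receptor genes were higher in Stat2 KO hosts in 13 of 15 cases, which was 10 of 15 after each of quantile normalization, cyclic loess and median centring. Without WT replicate 1, 9 of 15 were higher, with a median of 0.089. The median difference of the 15 genes was 0.16, with 0.11, 0.084 and 0.098 after quantile normalization, cyclic loess and median centring, beside 0.22 for the olfactory receptor genes, of which 81.7% were higher. Of the 15 receptors 0 passed the adjusted threshold. At an unadjusted p under 0.05 there were 2 (13.3%, against 8.82% of all genes and 24.1% of olfactory receptor genes). Groups did not overlap for 3 (20.0%, against 13.3% of all genes and 22.2% of olfactory receptor genes).

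Ccr9, which guides lymphocytes to the gut, read 5.24, 5.65 and 5.42 in Stat2 KO and 4.98, 5.05 and 5.04 in WT tumours. Its groups did not overlap, with a difference of 0.41 (SE 0.149, limma adjusted p = 0.509), and the WT values lay below 5.21. Ccr8, found on regulatory and type 2 helper T cells and a receptor for Ccl8, read 5.55, 5.28 and 5.62 against 5.00, 5.25 and 5.11. These did not overlap either, at 0.36 (SE 0.151, adjusted p = 0.538), so Ccr8 and its ligand Ccl8 had opposite signs. Ccr8 averaged 5.30, near the olfactory receptor median of 5.21, and its difference has the direction of those genes (median 0.22). Signal above background was not shown for Ccr8 or Ccl8, so this contrast is uncertain. Ccr1, the receptor gene for Ccl3, Ccl6 and Ccl9, was dim at 5.11, 4.70 and 5.16 against 4.74, 4.51 and 4.79. The groups overlapped, and the difference was 0.31 (SE 0.171), opposite in sign to the 3 ligands.

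The other CC receptors overlapped between hosts. Ccr3, the eotaxin receptor, was at 0.22 (SE 0.229), Ccr7, which takes dendritic cells and naive T cells to lymph nodes, at 0.11 (SE 0.156), Ccr10 at 0.035 and Ccr4 at 0.016. Over the 9 CC receptors 8 were higher (6 after each rescaling), the median was 0.20, and it was 0.089 without WT replicate 1, 0.11 after quantile normalization and 0.084 after cyclic loess.

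**Figure D5:**
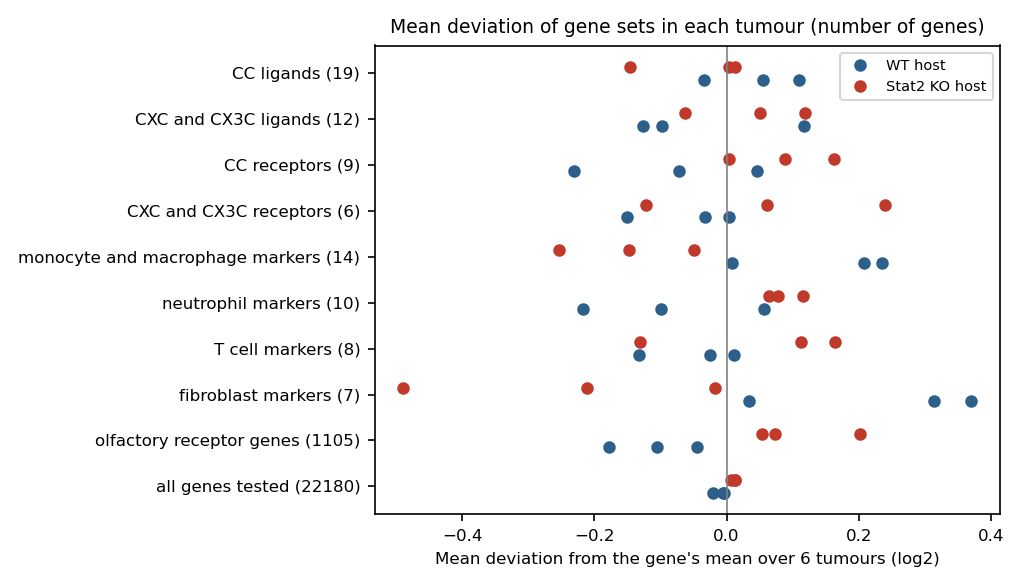
Mean deviation of each tumour from the mean of the 6 tumours (log2, horizontal axis), averaged over the genes of a set, with the number of genes in brackets. Stat2 KO and WT points do not overlap for macrophage, fibroblast and neutrophil markers, olfactory receptor genes and all genes tested, and they overlap for T cell markers and the 4 chemokine and receptor groups.

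The tumours differed among themselves as well as by host. Stat2 KO replicate 1 held the highest value of 0 of the 46 genes and the lowest of 14, and WT replicate 1 held the highest of 2 and the lowest of 16. The highest values lay mostly in Stat2 KO replicates 2 and 3 (13 and 11 genes) and WT replicates 3 and 2 (11 and 9 genes). Over all genes, Stat2 KO replicate 1 was highest for 14.7% and WT replicate 1 for 17.9%. The median pooled SD within hosts was 0.166 for the 46 genes and 0.185 for all genes. Ccr6 varied least (0.070) and Cxcl3, Cx3cr1 and Ccl6 most (0.841, 0.551 and 0.438).

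Of 40 other genes of the chemokine pathway, 0 passed the adjusted threshold (limma), and 3 had an unadjusted p under 0.05 (7.50%, against 8.82% of all genes). Rgs1, a brake on receptor signalling in lymphocytes, was at -0.46, and Rgs2, a regulator of the same family, at 0.53. The macrophage elastase gene Mmp12, whose product trims chemokines, was at -0.47. Rgs1 was dim at a mean of 5.13, so the size of its difference is uncertain. Rgs2 and Mmp12 averaged 6.21 and 6.64, under the level of 6.72 described above. Of the 9 other chemokines and atypical receptors, 7 were higher and 2 lower, and 0 had an unadjusted p under 0.05. Of the olfactory receptor genes 81.7% were higher. The scavenging receptor gene Ackr2 was at 0.24 with groups that did not overlap, the dendritic cell receptor gene Xcr1 at 0.39, its ligand gene Xcl1 at 0.26 and the platelet chemokine Pf4 at -0.029. Of 25 genes of the signalling chain below the receptors, 17 were lower and 8 higher with a median of -0.035, and the G protein gene Gnai2 was at 0.12.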

How the data were processed

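Each of 6 tumours gave total RNA for 1 Affymetrix array, with biotin-labelled cRNA, per the labels' protocols. The deposited values are log2 expression values that the authors summarised by RMA, and the submitters' processing notes name Expression Console 1.3.1. Probe-level intensities and detection calls were not used here, and the number of arrays limits the precision. Of 41345 probe sets, 23521 named 1 gene. Each gene was represented by the brightest of these over all 6 arrays. Differences are Stat2 KO host minus WT host, fitted with limma 3.58.1 in R 4.3.3 (lmFit, eBayes with an intensity trend, two-sided, Benjamini-Hochberg over 22180 genes, threshold 0.05), and 95% intervals use 12.14 degrees of freedom. Dim genes stayed in the fit. The procedure was tested on simulated data.

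The members, lists and tests were chosen with earlier results of these data known. Values per tumour are given for genes with an unadjusted p under 0.05, for those whose groups do not overlap and are not dim, and for the CCR2, CCR1, CXCR2, CXCR4, CXCR6 and CX3CR1 axes, 29 genes in all. Lists of T, B, NK and dendritic cell, neutrophil, macrophage, fibroblast, endothelial and melanocyte markers were set beside them. NK cell markers had 4 of 5 higher, B cell markers 4 of 5, dendritic cell markers 4 of 5 and endothelial markers 3 of 6, with 0, 0, 0 and 1 at an unadjusted p under 0.05. By comparison, 54.0% of all genes and 81.7% of olfactory receptor genes were higher. The 6 genes listed as proteins that bind or trim chemokines were 2 lower and 4 higher. The TATA box was added to the motif search after the values were seen. Alternatives covered normalization, the filter on dim genes, probe set choice, moderation, array weights, a replicate block, the threshold and each array left out.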

Additional observations from a re-analysis of the deposited data

How the results depend on the processing

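Of the 29 genes with values per tumour, 18 kept their direction over the 14 or 15 alternatives run for each and 11 did not, and 0 of those 11 had an unadjusted p under 0.05. The number of the 46 genes called was 0 under each alternative except array weights, which called 1, Ccl8. Over all genes 2 were called, with 257 under array weights, 1 under cyclic loess, 1 without the intensity trend, 0 after quantile normalization, and 0 to 17 with an array left out. Stat2 stayed lower throughout. Genes of the family with an unadjusted p under 0.05 numbered 11, with 3 to 10 when an array was left out (5.31% to 14.7% of all genes there). Those without overlap numbered 12, with 13 to 21 when an array was left out. The share of all genes without overlap rose as well, from 13.3% to between 19.6% and 34.7%. Without WT replicate 3 it was 31.1%, beside 32.6% of the family. Among genes brighter than the median gene, where 17 of the 46 remained, the counts of the family were 5 (29.4%) and 4 (23.5%). Of all such genes, 8.46% had an unadjusted p under 0.05 and 11.8% did not overlap. The median of the CC receptors, 0.20, was 0.11 after quantile normalization, 0.084 after cyclic loess and 0.11 among brighter genes, where 1 remained, and 0.089 to 0.25 with an array left out. That of the CXC and CX3C receptors was 0.12, with 0.030 to 0.28.

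The signs that turned are those below, and the cause was not tested. Quantile normalization, median centring and cyclic loess gave -0.014, -0.0098 and -0.031 for Cxcl2, -0.10, -0.052 and -0.11 for Cxcl5, and -0.10, -0.056 and -0.11 for Cxcr6. Median centring also gave -0.021 for Ccl4, -0.047 for Ccl7 and -0.047 for Cxcl12. Array weights gave -0.013 for Ccl4, -0.014 for Ccl7, 0.0079 for Ccr2, -0.096 for Cx3cr1, -0.068 for Cxcl5 and -0.070 for Cxcr6. With an array left out the ranges were -0.0041 to 0.10 for Ccl4, -0.062 to 0.11 for Ccl7, -0.14 to 0.067 for Cx3cl1, -0.32 to 0.33 for Cx3cr1, -0.12 to 0.14 for Cxcl1, -0.088 to 0.10 for Cxcl12, -0.11 to 0.35 for Cxcl2, -0.31 to 0.80 for Cxcl3, -0.099 to 0.15 for Cxcl5 and -0.056 to 0.11 for Cxcr6.

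The labels number replicates 1 to 3 in both hosts. They do not say that the numbers pair tumours, so the numbers were not taken as pairs. Deviations of same-numbered tumours from their host's mean correlated at 0.240, 0.079 and 0.030, and those of differently numbered tumours at -0.289 to 0.205. With 3 tumours per host these values cannot decide whether the numbers are pairs. With the replicate block 3 genes were called over all genes and 0 of the 46. An unadjusted p under 0.05 was then found for 11 of the 46 (23.9%) and for 11.2% of all genes, a share of 8.82% without the block.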
